A study of Rattus norvegicus with 31 samples.

Results

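The 21 strains of the HXB/BXH recombinant inbred rat panel were divided by the level of Rnf212 in the left ventricle of the heart, with a value over 5.3 on the deposited log2 scale called high and a value of 5.3 or less called low. This put 14 strains in the high class and 7 in the low class, out of 31 libraries in the series. Each recombinant inbred strain (9 of the BXH family, substrain Cub, and 12 of the HXB family, substrain Ipcv) is an inbred mosaic of the spontaneously hypertensive rat SHR/OlaIpcv (SHR, 6 libraries, of which 3 carry the number of replicate 4) and the Brown Norway congenic BN-Lx/Cub (BN-Lx, 4 libraries). All animals were naive males without treatment, RNA was depleted of ribosomal RNA before stranded libraries were made, and each recombinant inbred strain had 1 library, so that the strain was the replicate and the spread within a strain could not be seen. The classes were chosen by the Rnf212 values of the RefSeq gene table, so the levels of Rnf212 in these strains are given as a description and not as a result.

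Rnf212 encodes a RING finger protein that is known in mouse as a SUMO E3 ligase-like factor of meiosis, where it stabilises recombination intermediates together with the MutS homologues Msh4 and Msh5 so that they become crossovers. Its known role lies in germ cells. Transcripts of the gene were nevertheless measured in all 21 ventricles, and their level fell into 2 separate ranges. In a recombinant inbred panel, genes that lie close together on a chromosome are mostly inherited as a block from the same progenitor. If such a pattern follows the alleles at the gene itself, dividing the strains by it would largely divide them by the alleles of its neighbours too. Whether it does was not tested with genotypes. The questions were therefore which other genes differed between the classes, and whether these lay in the first 20 Mb of chromosome 14, where Rnf212 lies, or elsewhere.

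In the annotation deposited with the data (genome build rn7), Rnf212 spans bases 949397 to 988377 of chromosome 14 on the plus strand. Its body overlaps that of Fgfrl1, on the opposite strand, by 27488 bases. An assembled gene without a name (PRN7.71G0191129, chromosome 14, bases 942853 to 949411, 1 exon) lies head to head with it on the minus strand and shares 15 bases with its start. The start windows that RefSeq gives for Rnf212 in the build GRCr8 are shown because this neighbour meets Rnf212 at its start in rn7. The rn7 start was not matched to either window, so neither is known to hold the shared bases. The window of Cds1 is shown because its gene-level value was called between the classes. Each window runs from 250 bases before to 50 after a start, and 2 motifs, chosen after the sequences were read, were searched on both strands and are in capitals.
Rnf212, first window (chr14:1090502-1090801, plus strand): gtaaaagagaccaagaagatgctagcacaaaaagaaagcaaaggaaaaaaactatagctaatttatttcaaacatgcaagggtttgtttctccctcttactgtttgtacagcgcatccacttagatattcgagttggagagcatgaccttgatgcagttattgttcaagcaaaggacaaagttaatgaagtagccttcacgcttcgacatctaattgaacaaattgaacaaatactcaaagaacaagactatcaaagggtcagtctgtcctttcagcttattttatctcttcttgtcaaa
Rnf212, second window (chr14:1093739-1094038, plus strand): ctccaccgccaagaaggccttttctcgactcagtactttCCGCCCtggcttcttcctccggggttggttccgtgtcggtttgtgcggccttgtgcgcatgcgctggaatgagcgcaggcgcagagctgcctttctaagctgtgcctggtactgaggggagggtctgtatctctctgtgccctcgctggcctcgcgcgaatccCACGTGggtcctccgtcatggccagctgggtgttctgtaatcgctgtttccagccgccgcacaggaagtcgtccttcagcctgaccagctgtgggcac
Cds1 (chr14:8187194-8187493, minus strand): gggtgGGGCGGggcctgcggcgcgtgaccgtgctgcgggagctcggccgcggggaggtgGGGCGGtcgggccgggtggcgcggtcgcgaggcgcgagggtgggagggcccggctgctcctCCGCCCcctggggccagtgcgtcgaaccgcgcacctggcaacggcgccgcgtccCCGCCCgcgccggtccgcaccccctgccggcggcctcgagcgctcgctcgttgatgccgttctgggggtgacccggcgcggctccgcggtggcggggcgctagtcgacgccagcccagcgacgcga
The second window of Rnf212 held 1 match to CACGTG, the palindromic E-box, and 1 match to GGGCGG, the GC box. Of 33469 such windows of the table, 6.42% held CACGTG and 33.1% held GGGCGG. The first window of Rnf212 held neither and 4 CG pairs, against 21 CG pairs in the second. The window of Cds1 held 4 matches to GGGCGG, none to CACGTG, and 52 CG pairs. The tables do not say which start the heart uses, and no match was read as a binding site.

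In the RefSeq gene table Rnf212 averaged 6.07 ± 0.21 in the high strains and 4.72 ± 0.11 in the low strains (SD, n = 14 and 7). The high strains ran from 5.69 to 6.43 with a median of 6.04, and the low strains from 4.55 to 4.84 with a median of 4.76. The difference of means was 1.35 on the deposited log2 scale. It would be 2.55-fold if the values are plain log2 levels, which the sources used here do not state. The strains next to the threshold were HXB20 at 5.69 on the high side and BXH9 at 4.84 on the low side, and no strain lay between them. In the high class, HXB17 had the highest value at 6.43, followed by HXB25 at 6.30 and BXH11 at 6.23. In the low class, the lowest value was 4.55 in HXB1, with HXB7 at 4.62 and BXH6 at 4.63. Of the 2 RefSeq transcripts of the gene in the table, XM_003751319.5 averaged 5.54 ± 0.32 in the high strains and 3.84 ± 0.20 in the low strains, and its class ranges (4.94 to 5.94 and 3.61 to 4.22) did not overlap. The other, XM_017599407.2, averaged 2.70 ± 0.21 in the high strains and 2.17 ± 0.10 in the low strains, with ranges of 2.37 to 3.03 and 2.09 to 2.34 that lay just apart. The same division appeared in both other quantifications of these libraries, with averages of 7.28 and 5.09 in the deposited table of assembled genes, and 6.45 and 5.06 in the older Ensembl gene table (high and then low strains in each). The difference of means depended on the quantification, at 2.19 among the assembled genes and 1.39 in the Ensembl table.

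Both classes held strains of both families and of both sequencing batches. Of the high strains, 9 were HXB and 5 BXH, and of the low strains 3 were HXB and 4 BXH (Fisher's exact test, two-sided, p = 0.397). Batch 2 held 4 high and 2 low strains, and batch 3 held 10 high and 5 low strains (Fisher's exact test, two-sided, p = 1). The library median was 7.92 ± 0.015 in the high strains and 7.91 ± 0.0089 in the low strains, and the median of the spike-in RNAs was 6.25 ± 0.34 in the high strains and 6.43 ± 0.53 in the low strains (exact permutation within batch, two-sided, p = 0.595 and p = 0.346). Over all 25 library measures compared, which include the mean level of 12 marker lists of cell types, the smallest exact permutation p was 0.103, for oxidative phosphorylation genes, and 0.93 after Benjamini-Hochberg adjustment. Cardiomyocyte markers averaged 18.34 in both classes, and the 2 of 9 germ cell markers that the table holds averaged 3.35 ± 0.34 in the high strains and 3.41 ± 0.38 in the low strains.

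**Figure D1:**
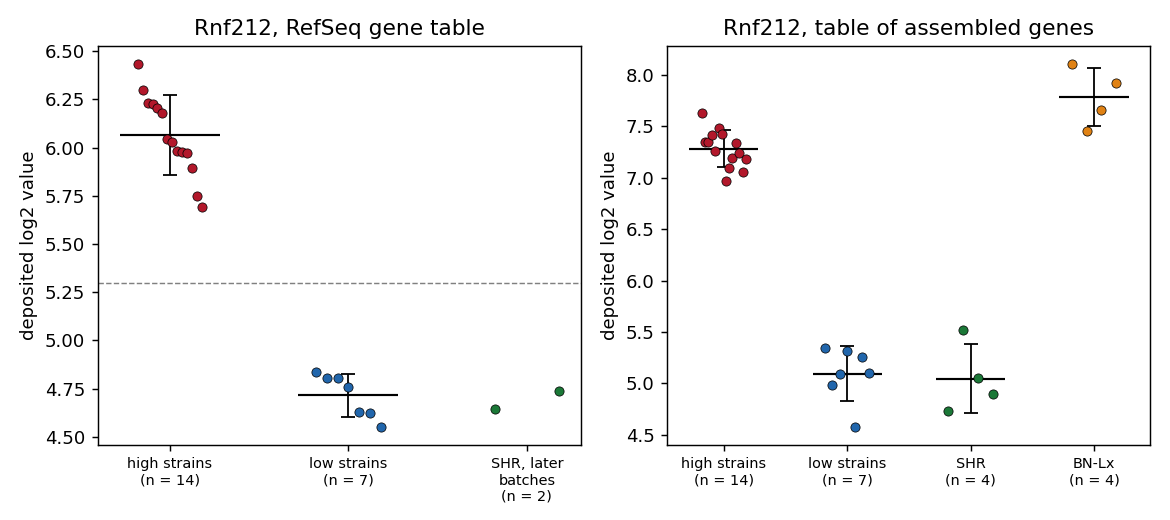
Deposited log2 values of Rnf212, 1 point per library, with the mean and SD as bars, in the RefSeq gene table (left, dashed line at the threshold of 5.3) and in the table of assembled genes (right). No recombinant inbred strain lay between 4.84 and 5.69, and the low strains and SHR lay together below the high strains and BN-Lx.

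The progenitor animals were not used to make the classes, and there Rnf212 could be tested. In the table of assembled genes, which was used because it holds both progenitors, Rnf212 (PRN7.71G0191134) had 4.73, 5.51, 5.05 and 4.89 in the 4 SHR libraries of batch 1, against 8.11, 7.46, 7.66 and 7.92 in the 4 BN-Lx libraries. Every SHR library was below every BN-Lx library. The log2 difference, SHR minus BN-Lx, was -2.74 (SE 0.20, limma, adjusted p = 1.91e-06), in a comparison that called 14.3% of 46063 assembled genes (6603, of which 3401, 7.38%, were higher and 3202, 6.95%, lower in SHR). On that same table the high strains ran from 6.97 to 7.63 and the low strains from 4.58 to 5.34, so that the low strains overlapped SHR (4.73 to 5.51), while the BN-Lx range (7.46 to 8.11) reached above that of the high strains. SHR replicate 4 was also sequenced in later batches, where the RefSeq table gave it 4.64 and 4.74, within the range of the low strains, and the assembled table gave it 5.35 in 1 of them, next to the highest low strain at 5.34.

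Few other genes were called between the high and the low strains. Of 19099 RefSeq genes tested with batch as a covariate (limma, Benjamini-Hochberg adjustment, threshold 0.05), 2 were called, 1 higher and 1 lower in the high strains, which is 0.0105% of the genes. These were Cds1 and LOC120096550. At an unadjusted p under 0.05 there were 1118 genes (5.85%), 648 with a higher mean in the high strains (3.39%) and 470 with a lower mean (2.46%). Of the 19099 genes, 13726 had a position by name in the deposited annotation, 123 of them in the first 20 Mb of chromosome 14 and 13603 elsewhere, and the other 5373 had none that could be used. The region held 1 called gene, Cds1, and the rest of the genome none, where 703 genes (5.17%) had an unadjusted p under 0.05. LOC120096550 was 1 of the genes without a position.

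Cds1 encodes CDP-diacylglycerol synthase 1, an enzyme that turns phosphatidic acid into CDP-diacylglycerol, the precursor of phosphatidylinositol. It lies 6.83 Mb from Rnf212 (chromosome 14, bases 7820264 to 7882943, minus strand). Its values in the high strains ran from 7.001 to 8.907 with a median of 8.46, and in the low strains from 6.63 to 7.15 with a median of 6.75. Of the 14 high strains, 12 lay above every low strain, and HXB24 at 7.001 and HXB5 at 7.14 lay inside the low range, just under BXH9 at 7.15. The log2 difference, high minus low, was 1.47 (SE 0.21, adjusted p = 0.00978 by limma). It was called in each of the 21 fits that left out 1 strain (1.42 to 1.57, adjusted p 0.000166 to 0.0477), and missed the threshold within each batch, at 1.67 in batch 2 (adjusted p = 0.189) and 1.39 in batch 3 (adjusted p = 0.426). The 1 RefSeq transcript with the symbol Cds1, NM_031242.2, had lower levels, 4.65 in the high and 3.94 in the low strains. That transcript was not called (0.71, SE 0.35, adjusted p = 0.788 by limma). Which transcript carries the gene-level difference was not tested.

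LOC120096550 is a long noncoding RNA gene at the low end of the table. RefSeq, in the build GRCr8, places it on chromosome 14 between Mtf2 and Dipk1a, which in the build of the files lie 0.641 and 0.784 Mb from Rnf212. Its values ran from 2.62 to 3.12 in the high strains and from 3.07 to 3.54 in the low strains. Of the 14 high strains, 13 lay below every low strain, and only BXH10, at 3.12, reached into the low range. The log2 difference was -0.48 (SE 0.07, adjusted p = 0.0104 by limma). The call was lost when BXH9, the low strain with the highest value, was left out (-0.44, adjusted p = 0.0517), without both strains nearest to the threshold (-0.43, adjusted p = 0.108), with Rnf212 as a continuous regressor (-0.32 per log2 unit, adjusted p = 0.282), and within batch 2 (-0.33, adjusted p = 1) and batch 3 (-0.55, adjusted p = 0.0554), by limma. Its neighbours Mtf2 and Dipk1a had differences of 0.09 (SE 0.13) and -0.05 (SE 0.08), neither of them called.

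The 10 genes nearest to Rnf212 showed no call, and their log2 differences lay between -0.14 and 0.26. Fgfrl1, a receptor-like protein that binds fibroblast growth factors without a kinase domain and whose body overlaps Rnf212, averaged 7.08 ± 0.23 in the high strains and 7.19 ± 0.29 in the low strains, a difference of -0.11 (SE 0.11, adjusted p = 0.872 by limma). Reads over the shared bases depend on how strand was used in counting, which is not stated. Next to it, 0.0432 Mb away, lies Idua, the lysosomal enzyme alpha-L-iduronidase, which degrades glycosaminoglycans. Idua ran from 9.74 to 10.11 in the high strains and from 9.55 to 9.80 in the low strains, so that 11 of 14 high strains lay above every low strain. Its difference of 0.26 (SE 0.06) had the fourth smallest p of all genes and did not pass the adjustment (adjusted p = 0.591 by limma). The progenitors, tested apart, differed at Idua by -0.47, SHR minus BN-Lx (SE 0.08, adjusted p = 0.00228 by limma). The other 8 were Slc26a1, a sulfate transporter, at 0.08, Dgkq, a diacylglycerol kinase, at 0.08, Tmem175, a lysosomal ion channel, at -0.04, Gak, a kinase of clathrin uncoating, at 0.06, Pcgf3, a Polycomb group protein, at 0.03, Slc49a3 at 0.16, Atp5me, a subunit of ATP synthase, at -0.14 and Tmem271 at -0.14, with adjusted p from 0.817 to 0.942.

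Below the threshold for a call, small p-values were more common near Rnf212 than over the whole table, although no gene list was tested for this. Of the 123 genes in the first 20 Mb, 19 (15.4%) had an unadjusted p under 0.05, 15 with a higher mean in the high strains and 4 with a lower one, against 5.85%, 3.39% and 2.46% of all genes. By distance from Rnf212, the share was 17.4% of 46 genes under 5 Mb and 36% of 25 genes at 5 to 10 Mb. It was 3.45% of 58 genes at 10 to 20 Mb, 3.33% of 60 genes at 20 to 40 Mb and 5.9% of the 271 genes farther away. The median size of the difference, regardless of sign, was 0.11 under 5 Mb and 0.12 at 5 to 10 Mb, and 0.05 at 10 to 20 Mb.

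Genes of this stretch with the smallest p are named here after their values were seen. Ptpn13, a protein tyrosine phosphatase 5.12 Mb from Rnf212, averaged 10.36 ± 0.12 in the high strains and 10.03 ± 0.12 in the low strains, a difference of 0.33 (SE 0.06, adjusted p = 0.0834 by limma), and 11 of 14 high strains lay above every low strain. Arhgap24, a GTPase-activating protein at 5.81 Mb, averaged 10.16 ± 0.23 in the high strains and 9.77 ± 0.09 in the low strains, a difference of 0.39 (SE 0.09, adjusted p = 0.591). Dmp1, a matrix protein of bone and dentin, had a difference of -0.36 (SE 0.09, adjusted p = 0.639). Hpse, which encodes heparanase, had 0.35 (SE 0.10), and Gpat3, an acyltransferase of triacylglycerol synthesis, 0.25 (SE 0.07), both with an adjusted p of 0.817. Of the 19 genes, 6 could be matched by name to a single assembled gene (Idua, Gbp6, Dmp1, Arhgap24, Cds1 and Hpse). All 6 differed between the progenitors, beside 14.3% of all assembled genes, and in all 6 SHR lay on the side of the low strains, beside 47.4% of the called genes on other chromosomes. The genes behind these shares were not chosen by their class p, as the 6 were, so the shares are no like-for-like comparison. The 6 also lie in 1 stretch of chromosome 14 and cannot be counted as separate agreements. At Arhgap24 and Hpse the log2 differences, SHR minus BN-Lx, were -0.54 and -0.50. The names of the other 13 were carried by 30 assembled genes, alone or together with a neighbour. Of these 30, 5 differed between the progenitors, 3 of them with SHR on the side of the low strains, and over all 30 this direction held for 17. The assembled gene of Ptpn13 at 5.12 Mb (PRN7.71G0191759) had a progenitor difference of -0.21 (adjusted p = 0.109 by limma).

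**Figure D2:**
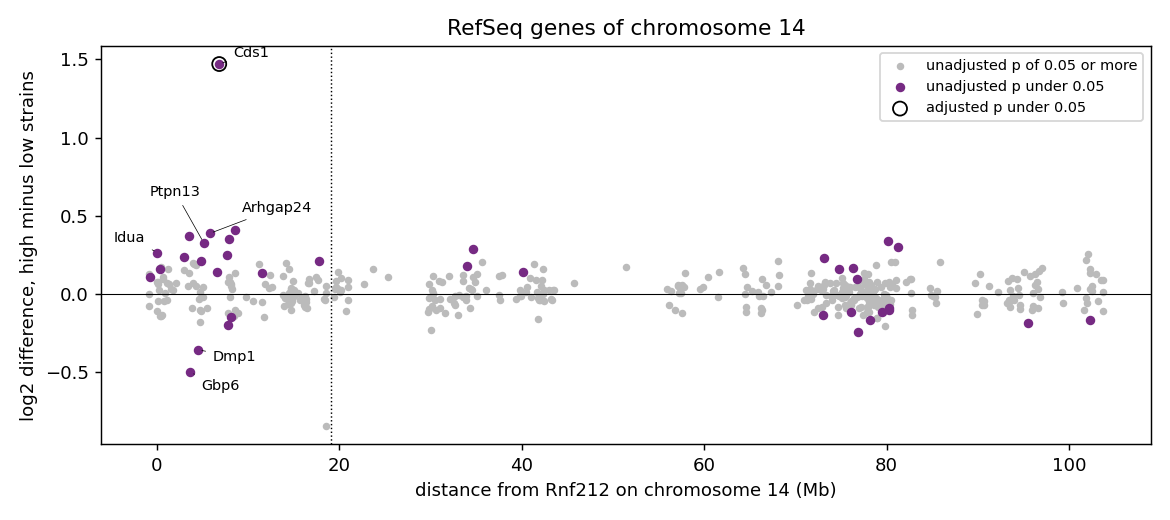
Log2 difference, high minus low strains, of RefSeq genes of chromosome 14 against their distance from Rnf212, with the end of the 20 Mb region as a dotted line. Only genes with a position in the deposited annotation are shown. The called gene LOC120096550 has none there and is absent. Among the genes shown, Cds1, at 1.47, is the only one past the adjusted threshold. Genes with an unadjusted p under 0.05 are most frequent at 5 to 10 Mb (36% of 25 genes).

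By chromosome, the share of genes with an unadjusted p under 0.05 ran from 3.27% on chromosome 6 to 8.04% on chromosome 14, leaving out chromosome Y with its 6 genes. Chromosome 3 had 7.69% and chromosome 15 had 7.38%, and each of the others had 6.28% or less. The genes elsewhere with the smallest p, Rfc3 on chromosome 12 and Dnah3 on chromosome 1, had differences of -0.35 (SE 0.08) and 0.23 (SE 0.05), both with an adjusted p of 0.591 by limma. Of all 19099 genes, 1 had classes that did not overlap (0.00524%), LOC120102363, at 2.89 to 3.23 in the high strains and 2.62 to 2.86 in the low strains. Its difference of 0.21 (SE 0.05) was not called (adjusted p = 0.598 by limma).

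Genes of the processes in which Rnf212 is known to act showed no call. Of the 50 genes of the list of meiotic crossover and synapsis, 27 were in the table, and their median difference was -0.01, beside 0.01 over all genes. Msh4 and Msh5, which form the MutS complex that Rnf212 acts with, had 3.10 and 3.06 in the high strains and 3.13 and 2.94 in the low strains. Ccnb1ip1 (HEI10), the ubiquitin ligase that counteracts Rnf212 in mouse, had 1.28 in the high strains and 1.26 in the low strains. The smallest p of the list were those of Syce2, a protein of the synaptonemal complex, at 0.27 (SE 0.10), and Msh5, at 0.12 (SE 0.06), both with an adjusted p of 0.817 by limma. Of the 24 genes of the SUMO pathway, 23 were measured, with a median difference of 0.04 and a range of -0.12 to 0.14. Among them, the activating subunit Uba2 had -0.11 (SE 0.05, adjusted p = 0.817 by limma).

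Heart gene lists were likewise without a call. For oxidative phosphorylation, 70 of 72 genes were measured, with a median difference of -0.10. Of the 70, 3 had an unadjusted p under 0.05 (Ndufa1, Ndufb5 and Atp5pb, all with a lower mean in the high strains). Over all genes the share under that p was 5.85%, and 2.46% with a lower mean, so the 3 are not read as a result about the list. The medians were -0.05 for 28 genes of fatty acid oxidation, -0.04 for 20 sarcomere genes, 0.06 for 41 genes of the extracellular matrix, -0.01 for 19 genes of hypertrophy and the fetal program, 0.05 for 26 interferon response genes and -0.04 for 39 lysosomal genes, Idua among them. Fibroblast growth factor signalling, the pathway of the overlapping gene Fgfrl1, had a median of -0.03 over 26 genes. In bulk tissue, fewer cells of a type and less RNA per cell cannot be told apart, and no marker list of a cell type held a called gene.

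Of 39565 RefSeq transcripts other than those of Rnf212, 1 was called (0.00253%), XR_005493020.1, for which the tables give no gene name. It averaged 8.11 ± 0.61 in the high strains and 6.39 ± 0.32 in the low strains, a difference of 1.72 (SE 0.24, adjusted p = 0.0161 by limma). Its 2 lowest values among the high strains were those of HXB24 at 6.76 and HXB5 at 6.796, the same strains that were lowest in Cds1, and its highest was that of HXB21 at 8.76. The 1 transcript with the symbol Cds1, NM_031242.2, averaged 4.65 ± 0.92 in the high strains and 3.94 ± 0.39 in the low strains and was not called (0.71, SE 0.35, adjusted p = 0.788 by limma). The transcript of LOC120096550 had a difference of -0.48 (SE 0.09, adjusted p = 0.218 by limma).

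The table of assembled genes, which also holds genes that RefSeq does not name, gave 2 calls among 46062 genes (0.00434%), both near Rnf212 and both higher in the high strains. These were Cds1, at 1.60 (SE 0.25, adjusted p = 0.0413 by limma), and PRN7.71G0191129, the unnamed gene at the start of Rnf212. This gene ran from 4.16 to 5.26 in the high strains and from 2.54 to 3.86 in the low strains, without overlap, which held for 2 of 46062 genes (0.00434%). Its difference was 1.502 (SE 0.20, adjusted p = 0.00607 by limma). In the progenitors it had 3.01, 3.68, 2.90 and 3.50 in SHR and 5.24, 4.77, 4.48 and 5.32 in BN-Lx, a log2 difference of -1.68 (SE 0.29, adjusted p = 0.00216 by limma). How the authors assigned reads by strand is not given in the sources used here, and reads of this gene and of Rnf212 were not told apart further.

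The next 4 genes did not pass the threshold, each with an adjusted p of 0.0534, and are named after their values were seen. Hfm1, a helicase that in mouse is needed for meiotic crossovers, lies 1.87 Mb from Rnf212 (chromosome 14, bases 2857251 to 2967787, plus strand) and is not in the RefSeq gene table. It averaged 2.38 ± 0.66 in the high strains and 0.90 ± 0.17 in the low strains, a difference of 1.49 (SE 0.26). Of the high strains only HXB21, at 0.91, lay inside the low range of 0.63 to 1.12, and the next lowest was BXH12 at 1.69. SHR averaged 0.70 ± 0.25 and BN-Lx 2.88 ± 0.14 at Hfm1 (SD, n = 4 each, -2.18, SE 0.30, adjusted p = 0.000412 by limma).

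Gbp6, an interferon-inducible guanylate-binding protein 3.67 Mb from Rnf212 (chromosome 14, bases 4660566 to 4666220, minus strand), ran the other way. It averaged 2.22 ± 0.75 in the high strains and 4.15 ± 0.69 in the low strains, a difference of -1.93 (SE 0.33), and 4.19 ± 0.34 in SHR against 1.57 ± 0.64 in BN-Lx. Gbp6 belongs to a family of similar genes, among which reads may be divided, and in the RefSeq table it had a smaller difference of -0.50 (SE 0.16, adjusted p = 0.817 by limma). In the assembled table HXB24 at 3.93 and HXB21 at 3.56 stood above the other high strains, and BXH9 at 2.68 stood below the other low strains. PRN7.71G0191758, without a name, at 5.07 Mb (chromosome 14, bases 6061050 to 6073363, plus strand), averaged 8.38 ± 0.95 in the high strains and 5.98 ± 1.02 in the low strains, a difference of 2.40 (SE 0.41). SHR averaged 5.36 ± 0.27 and BN-Lx 8.72 ± 1.10 at this gene, and among the low strains BXH2, at 7.85, was nearest to BN-Lx. The remaining gene at this adjusted p, PRN7.71G0098625 on chromosome 5, had a difference of 1.19 (SE 0.20) between the classes and of -0.14 (SE 0.32, adjusted p = 0.813 by limma) between the progenitors.

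**Figure D3:**
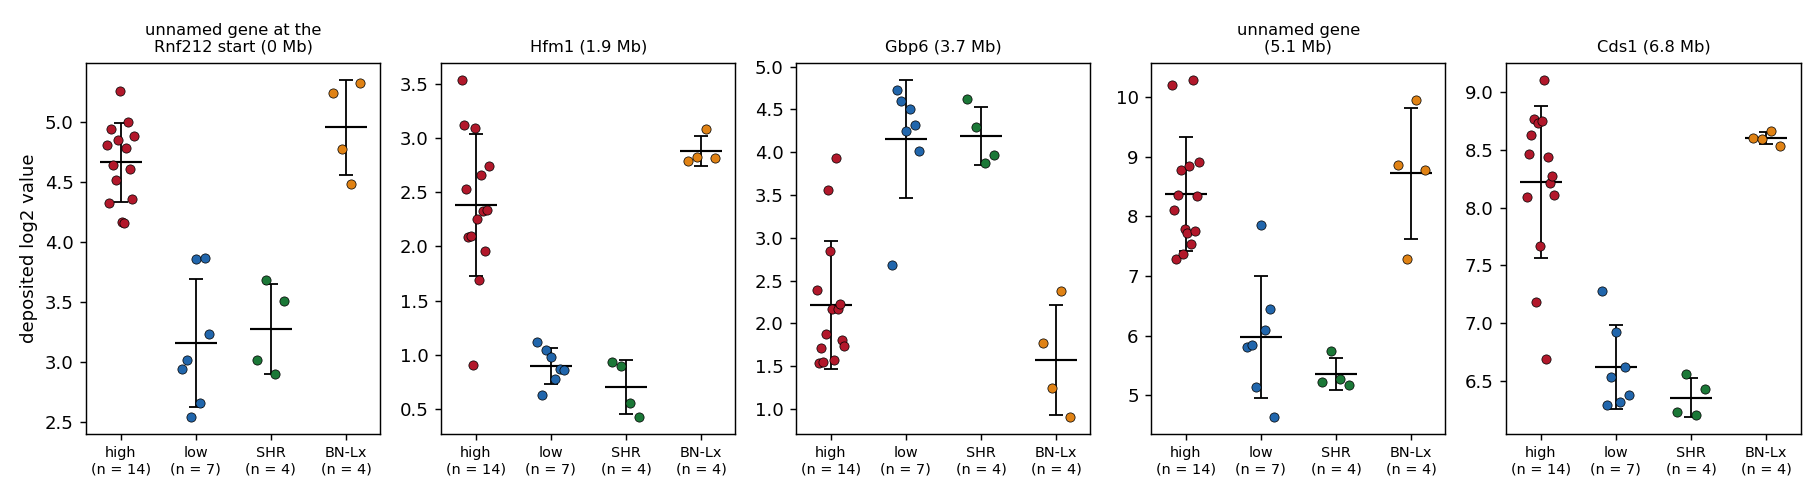
Deposited log2 values of 5 assembled genes within 7 Mb of Rnf212, 1 point per library, with the mean and SD as bars. In each gene most low strains lay around the SHR values and most high strains on the side of BN-Lx, with single strains such as HXB21 at Hfm1 (0.91) and HXB24 at Gbp6 (3.93) on the other side of their class.

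The progenitors gave a comparison that shares no library with the classes. Of 241 assembled genes under 10 Mb from Rnf212, leaving out Rnf212, 32 differed between SHR and BN-Lx, and in 27 of these (84.4%) the low strains deviated from the high strains in the direction in which SHR deviated from BN-Lx. At 10 to 20 Mb this held for 12 of 25 genes (48%), at 20 to 40 Mb for 13 of 27 (48.1%), farther away on chromosome 14 for 62 of 119 (52.1%), and on the other chromosomes for 3031 of 6399 (47.4%). The class difference was at the median 0.43 of the progenitor difference under 10 Mb, and -0.02 of it on the other chromosomes. The 32 genes lie together in a stretch whose genes are mostly inherited as a block, so they cannot be counted as separate agreements. They include PRN7.71G0191129, which shares bases with the start of Rnf212.

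**Figure D4:**
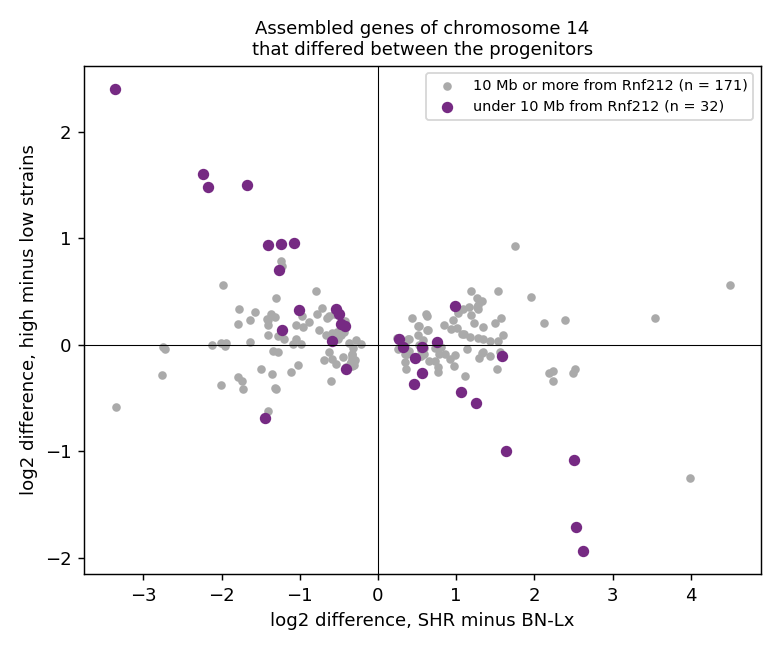
Log2 difference, high minus low strains, against the log2 difference, SHR minus BN-Lx, of the assembled genes of chromosome 14 that differed between the progenitors, Rnf212 left out. Of the 32 genes under 10 Mb from Rnf212, 27 have the low strains on the side of SHR, with the 2 differences opposite in sign. These 32 lie in the same stretch of the chromosome and cannot be counted as separate agreements.

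Strains could be placed along the region with genes chosen in the progenitors. In the first 20 Mb, 12 assembled genes, Rnf212 among them, differed between SHR and BN-Lx by at least 1.5 on the log2 scale with an adjusted p under 0.05 and without overlap of their libraries. For each strain the value of a gene was set on a scale with 0 at the SHR mean and 1 at the BN-Lx mean, and 0.5 was taken as the midpoint. Rnf212 itself made the classes and is left out of all counts that follow, which leaves 11 genes. At PRN7.71G0191129, the gene beside it, 21 of 21 strains lay on the side of the midpoint given by their class. The count was 19 at Hfm1, 17 at Zfp326 (1 of 4 assembled genes with that name, PRN7.71G0191470), 18 at Gbp6, at Abcg3l3 (also 1 of 4 with that name, PRN7.71G0191607) and at Dmp1, 20 at PRN7.71G0191758 and 19 at Cds1. At 14.99, 16.49 and 18.89 Mb it was 12, 12 and 9 of 21. Entries with the names Zfp326 and Abcg3l3 did not all go the same way between the classes. PRN7.71G0191470 had -1.08, but the Zfp326 assembled gene PRN7.71G0191471 had 0.93 and the RefSeq gene Zfp326 had 0.24. The progenitors also differed in opposite directions at these assembled genes. SHR minus BN-Lx was 2.51 at PRN7.71G0191470 and -1.40 at PRN7.71G0191471, so at both the low strains lay on the side of SHR. PRN7.71G0191607 had -1.71, but the RefSeq transcript XM_039091817.1 of Abcg3l3 had 0.89. None of these class differences was called, and the counts hold for the single assembled genes only.

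Some strains departed from their class at several of these genes. HXB24, a high strain, lay on the BN-Lx side at Hfm1, on the SHR side at Zfp326, Gbp6, Abcg3l3 and Dmp1, on the BN-Lx side at PRN7.71G0191758 (0.65) and on the SHR side at Cds1. It was on the side of its class at 3 of 11 genes. HXB21 lay on the SHR side at Hfm1, Gbp6, Abcg3l3 and Dmp1, and on the BN-Lx side at Zfp326, PRN7.71G0191758 and Cds1 (5 of 11 in all). Within 10 Mb, HXB13 lay on the SHR side at Zfp326 (0.12) and Abcg3l3 (0.31), and HXB25 at Zfp326 (0.28) and Dmp1 (0.496). Others departed at 1 gene within 10 Mb, such as BXH12 at Hfm1 (0.45) and HXB5 at Cds1 (0.37). HXB29 and HXB20 were on the side of their class at all 11. Among the low strains, BXH9 departed at Gbp6 (0.58 on this scale) and BXH2 at PRN7.71G0191758 (0.74), while HXB1, HXB7, BXH6 and BXH8 were on the side of their class at 10 of 11 genes. The strains were sequenced in other batches than the progenitors, and some positions, such as the 0.49 of HXB17 at Zfp326, lay next to the midpoint.

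**Figure D5:**
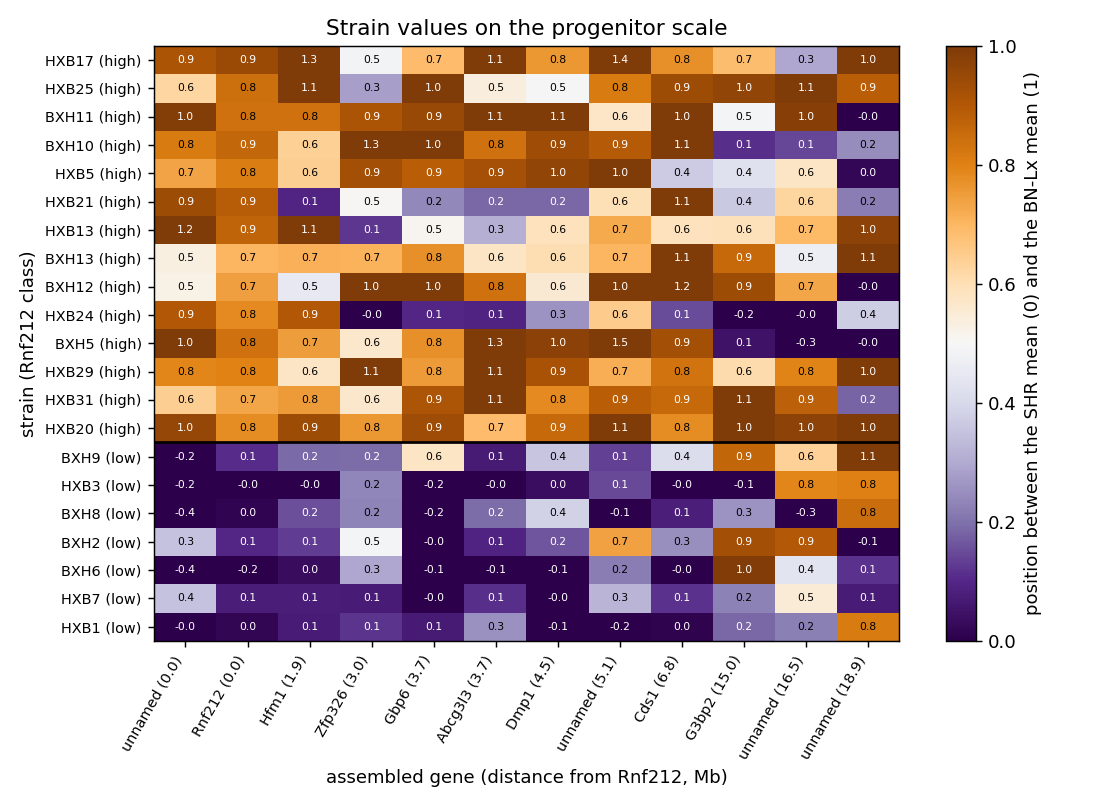
Value of each strain at 12 assembled genes on a scale from the SHR mean (0) to the BN-Lx mean (1), with genes from left to right by their distance from Rnf212 and strains from high to low Rnf212, the line marking the border of the classes. Rnf212 made the classes and separates them by choice, while 19 of 21 strains were on the side of their class at Cds1 and 9 to 12 of 21 beyond 14 Mb.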

How the data were processed

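Left ventricle RNA of 21 recombinant inbred strains and of the progenitors SHR and BN-Lx was analysed. The authors deposited log2 expression values per gene or transcript. Read counts were not used here, library depth is unknown, and the values carry no counting interval. Tools in the submitters' processing notes are RSEM 1.3.1, StringTie 1.3.5, HISAT2 2.1.0, Bowtie2 2.3.4.3, cutadapt 1.9.1 and DESeq2 (no version), with rn7 as the build. Their roles and the transformation were not stated in the sources used here. Positions are those of the deposited heart annotation, matched by gene name, and 5362 of 19099 RefSeq genes were not named in it.

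The classes and lists were chosen with earlier results of these data known. High and low strains were compared in linear models (limma 3.58.1, R 4.3.3) with batch as a covariate and empirical Bayes moderation that followed mean level (two-sided, Benjamini-Hochberg adjustment over all genes other than Rnf212 and 69 spike-in rows, threshold 0.05). RefSeq transcripts were fitted likewise, 28502 of 39565 matched to a symbol, after 45 unassigned rows had been left out. SHR and BN-Lx were compared without covariates in the 8 libraries of batch 1. The SHR columns of later batches were matched to their group only and entered no test. Whether animals were littermates is not in the labels, and p-values reflect the spread among these libraries. The label batches 2 and 3 carry the suffixes batch1 and batch2 in the tables. Library measures were compared by exact permutation within batch over 45045 assignments. Named genes were the 10 nearest to Rnf212, the called genes and the called members of each list, and others are said to be named after their values were seen. Alternatives covered the trend, batch, family and spike-in terms, normalization, low values, single batches, left-out strains, the threshold, the tables and the size of the region. Start windows are from RefSeq (GRCr8), whose coordinates were not mixed with those of rn7.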

Additional observations from a re-analysis of the deposited data

How the results depend on the processing

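The count of 2 genes called between the classes held without the intensity trend, without the batch term, with family as a covariate, after quantile normalization, and with robust eBayes, each time as Cds1 and LOC120096550. Among assembled genes matched by name the count was also 2, but for another pair, Cds1 and Gbp6 (adjusted p of Gbp6 0.0254, against 0.0534 over all 46062 assembled genes, by limma). It was 1 in batch 2 alone (LOC102553868, 3.21, adjusted p = 0.0288), and 1, Cds1, with the lowest 25% of genes by mean level left out, without the strains nearest to the threshold (HXB20 and BXH9), with Rnf212 as a continuous regressor and in the older Ensembl table (added after seeing the data), 0 with batch 3 alone, and 5 with the spike-in level as a covariate (Cds1, LOC120096550, Ptpn13, Dmp1 and Abcg3). Leaving out each strain gave 1 to 3 calls. The loss to 1 came without BXH9, and Ptpn13 was gained without BXH2 (0.36, adjusted p = 0.0389) and without HXB21 (0.34, adjusted p = 0.0409) by limma. In the first 20 Mb the count of 1 was 0 in either batch alone, 3 with the spike-in covariate, 2 in the table of assembled genes and 1 to 2 without single strains. Elsewhere it was 0 in each of these fits. Regions of 10 and 30 Mb kept 1 gene inside. Directions turned only in uncalled genes, for Fgfrl1 (0.144 in batch 2, 0 without HXB20 and BXH9), Tmem175 (0.024 in batch 2) and Slc26a1 (-0.058 in batch 3, -0.012 without BXH5 and -0.01 without HXB3, against 0.421 in batch 2 and 0.242 without BXH8). The causes were not tested.

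SHR against BN-Lx gave 6603 calls, 5437 with the replicate number as a block, and 4377 to 6114 when 1 library was left out, the lowest without SHR replicate 4. Deviations of libraries with the same number correlated between -0.04 and 0.03, so the numbers did not pair them. Rnf212, Cds1 and PRN7.71G0191129 kept their calls in all of these. Positions of the RefSeq reference were not run as an alternative because its build differs.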
